A study of Mus musculus with 17 samples.

Results

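After 12 Gy of gamma-irradiation, cells with high LGR5 reporter signal (LGR5hi) were compared with cells of low signal (LGR5lo), both labelled as intestinal stem cells. The comparison takes the 4 arrays titled as irradiated LGR5hi and the 4 titled as irradiated LGR5lo, which is 8 of the 17 arrays in the series, and pairs them by the replicate number in their titles. All mice carried LGR5-GFPki, a knock-in in which green fluorescent protein reports Lgr5. Irradiated mice received 12 Gy, and the cells were collected by flow cytometry 3 hours later. Non-irradiated mice of that genotype gave 4 LGR5hi and 5 LGR5lo arrays, which are used here only to set the same sort difference beside that after 12 Gy. The age of the mice, the sort gates, and whether a sample came from 1 mouse or several are not given in the sources used here. Pairs 1 and 3 were labelled male and pairs 2 and 4 female, so the 2 samples of a pair shared a sex label.

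Lgr5 encodes a receptor for R-spondins, secreted proteins that strengthen WNT signalling by holding back the membrane ligases RNF43 and ZNRF3. It marks the cycling columnar stem cells between Paneth cells at the crypt base, which are maintained by WNT and Notch signals and give rise to absorptive enterocytes and to the secretory lineages (goblet, Paneth, enteroendocrine and tuft cells). Cells with lower Lgr5 include early progeny and secretory precursors. Ionizing radiation breaks DNA and activates p53, which induces genes of cell cycle arrest, apoptosis and repair.

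Each value is a log2 signal minus the 75th percentile of its array, so a value of 0 lies at that percentile, and a difference is LGR5hi minus LGR5lo on this log2 scale with the standard error of the fit over 4 pairs. A gene was called when its Benjamini-Hochberg adjusted p from limma was under 0.05. On the irradiated arrays the 75th percentile lay at 287 to 578.9 intensity units in LGR5hi and 478.1 to 603 in LGR5lo, and 58.9% to 73.9% and 70.3% to 73% of spots were well above background. The spike-in slope was between 0.95 and 1 on all 8, and 0% of spots were saturated. Pairs 1 and 2 were on one slide and pairs 3 and 4 on another. The sorts of a pair lay in neighbouring places on the slide, always in one order, so that place and sort cannot be told apart. Among the non-irradiated arrays, LGR5lo replicate 2 was unlike the rest (95.6% of its spots passed background), LGR5lo replicate 4 had a recorded spike-in slope of 0, and LGR5hi replicate 1 was rebuilt from the authors' series table. Where leaving out one of these non-irradiated pairs changes a call or moves a value below by over 1.5 times, the value without it is given, and leaving out pairs 3 and 4 was added after seeing the data.

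Of 26078 gene names tested, 5832 (22.4%) were called, 2952 higher in LGR5hi (11.3%) and 2880 lower (11.0%). All 5832 had the same sign in all 4 pairs, which largely follows from calling on these same 4 differences and is no separate support. Of all genes 38.2% had an unadjusted p under 0.05. Differences of at least 2-fold were less even: 582 called genes (2.23%) were higher in LGR5hi by that much and 1111 (4.26%) lower. The median over all genes was 0.05. The share of higher calls among all calls was 50.6%. That share was 74.7% after normexp background correction, which moved the median of all genes to 0.19, and 43.5% after median centring. At the dim end the sorts differed in 1 direction: 142 genes were above background on all 4 LGR5lo arrays and on 0 LGR5hi arrays, and 1 gene, Ebf1, showed the reverse. The lower share of spots above background on some LGR5hi arrays moves with this count, and its part was not tested. The count of calls rested on the number of pairs, being 1634, 2075 and 2562 without pairs 1, 2 and 3 and 5995 without pair 4. With the slides taken alone it was 2254 on slide 1 and 0 on slide 2, where 4114 genes had an unadjusted p under 0.05. Without the replicate block it was 3270, and the median standard error was 0.179 against 0.121 with it.

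Ebf1, a transcription factor gene best known from B cells, was the 1 gene above background in LGR5hi alone. Its normalized log2 signal was -4.3, -4.08, -3.45 and -3.5 in LGR5hi pairs 1 to 4 and -8.01, -6.73, -7.48 and -7.14 in LGR5lo. Its probe (mm9 chromosome 11, 44818438 to 44818497) was above background on 4 LGR5hi and 0 LGR5lo arrays, and so passed the background filter through LGR5hi alone. The lack of overlap and the fitted 3.50 ± 0.24 (limma adjusted p = 0.00219) rest on LGR5lo values below background and add no support. The difference is stated only as at least 4.19-fold. The same holds for each gene below that is given as a bound. Such a bound sets the brighter group's mean against the dimmer group's mean of, on each array, the higher of the probe's own signal and the lowest signal among probes above background. Among genes above background in both sorts the largest excesses beside Lgr5 were those of Esr1, the estrogen receptor alpha gene, at 3.12 ± 0.15, A930009A15Rik at 3.1 ± 0.19, Rgs5, a regulator of G protein signalling, at 2.77 ± 0.22, and Tvp23a at 2.69 ± 0.19 (above background on 2 LGR5lo arrays). The urea transporter gene Slc14a1 (2.68 ± 0.18), the water channel gene Aqp5 (2.66 ± 0.11, with its other probe at 0.77), the protocadherin gene Pcdh8 (2.60 ± 0.19) and the lactate dehydrogenase subunit gene Ldhb (2.51 ± 0.14) followed. Esr1, A930009A15Rik, Slc14a1, Pcdh8 and Ldhb were also called higher in LGR5hi without irradiation, at 2.62, 2.47, 2.06, 2.23 and 1.24. Ebf1 (-0.72 ± 0.87), Rgs5 (-0.86 ± 0.69) and Tvp23a (1.23 ± 0.67) were not called there, but with all pairs the difference between the arms was not called for any of these 3 genes (adjusted p = 0.332, 0.28 and 0.562). These values depended on the non-irradiated pair 2, where Ebf1 differed by -4.44 and Rgs5 by -4.15. Without that pair they were 0.52, 0.23 and 2.19, Tvp23a was called (adjusted p = 0.0188), and the difference between the arms was called for Rgs5 (2.54, adjusted p = 0.0305). Tvp23a was 0.45 without pair 4 of that arm, and Ebf1 -1.71.

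Lgr5 itself, which the reporter follows and which therefore checks the sort, was at 2.66, 3.14, 2.35 and 2.66 in LGR5hi and at -0.63, 0.2, -0.55 and 0.26 in LGR5lo (mm9 chromosome 10, 114887403 to 114887462). Every LGR5hi array lay above every LGR5lo array, and the difference was 2.89 ± 0.16, or 7.4-fold (adjusted p = 0.00182). Ascl2, a transcription factor of stem cell identity, read 4.81, 5.44, 4.75 and 4.59 in LGR5hi and 2.37, 3.11, 3.01 and 2.88 in LGR5lo, a difference of 2.05 ± 0.17 with no overlap. Olfm4, a secreted glycoprotein of crypt base cells, was at 5.8 to 6.03 in LGR5hi and 3.42 to 4.33 in LGR5lo (2.01 ± 0.18), and Smoc2, a matricellular protein gene, differed by 1.17 ± 0.12. Of 35 LGR5 stem cell markers tested, 30 were called higher in LGR5hi and 1 lower, with a median of 1.15. Gkn3 (2.04 ± 0.11), Igfbp4, an inhibitor of insulin-like growth factors (1.88 ± 0.10), and Tnfrsf19, a receptor of the tumour necrosis factor family (2.54 ± 0.11), were among the clearest. The exception was Sfrp5, a secreted WNT inhibitor, which was lower in LGR5hi (-0.75 ± 0.09) but lost its call without pair 1 and with no replicate block. Without irradiation 30 of the 35 were called higher (median 1.37), 28 of them called higher in both arms. The difference was smaller after 12 Gy for 26 of the 35, 7 of them at an unadjusted p under 0.05, and 1, Sfrp5, was called (median of the difference between arms -0.23). Without the non-irradiated pair 2 it was smaller for 20 of 35, with a median of -0.05, and without pair 1 of that arm 0 were called.

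**Figure D1:**
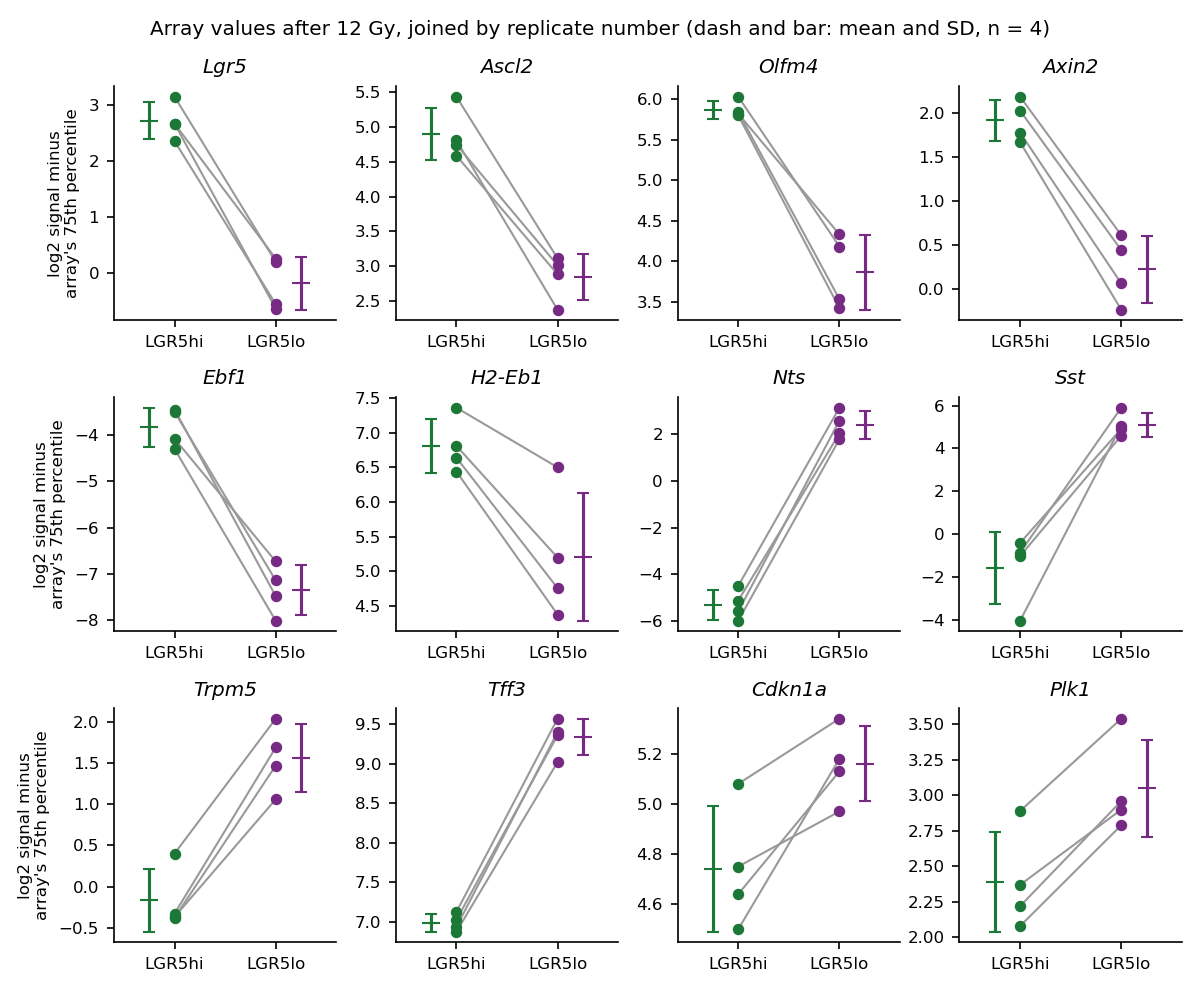
Normalized log2 signal (array's 75th percentile at 0) of 12 genes on the 8 arrays after 12 Gy. Lines join LGR5hi and LGR5lo arrays of one replicate number, and the dash with its bar is the mean and SD of 4 arrays. Lgr5, Ascl2, Olfm4, Axin2 and Ebf1 are higher in LGR5hi in 4 of 4 pairs, Nts, Sst, Trpm5 and Tff3 are lower without overlap, and Cdkn1a, Plk1 and H2-Eb1 overlap between the sorts while keeping 1 direction within pairs.

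Of 25 WNT target and feedback genes tested, 12 were called higher in LGR5hi and 3 lower, with a median of 0.40. Sp5, a direct WNT target that encodes a zinc finger factor, was at 3.45, 3.43, 3.55 and 3.62 in LGR5hi and at 1.24, 1.27, 1.66 and 1.54 in LGR5lo. These groups were far apart relative to their spread (2.09 ± 0.09, adjusted p = 0.00163). Axin2, a negative feedback gene of the pathway, was at 1.67 to 2.19 against -0.24 to 0.61 (1.70 ± 0.10), and Lef1, a partner of beta-catenin on DNA, was higher by 2.61 ± 0.17. The 3 members lower in LGR5hi encode inhibitors of the pathway, and were named after their values were seen. Inhibitors of this list did not go 1 way. Axin2, Rnf43 (1.45) and Znrf3 (0.63), which also restrain the pathway, were called higher, and Nkd1 (0.40) and Notum (-0.49) were not called. Wif1, a secreted WNT binder, was above background on 4 LGR5lo and 0 LGR5hi arrays and was at least 8.39-fold lower in LGR5hi. Dkk3 likewise was above background in LGR5lo alone and at least 1.5-fold lower (-1.46 ± 0.33), but it lost its call without any one of the 4 pairs (adjusted p up to 0.118) and read 0.26 after normexp correction. Nkd2, an intracellular antagonist, differed by -0.46 ± 0.08. Without pairs 1, 2 or 3 in turn the lower calls of the list were 1.

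The Sp5 promoter is shown because it was the only one of 16 WNT list members with a promoter in the RefSeq table to hold the TCF/LEF core CTTTGAT, searched on both strands over the 250 bases before the gene start. The letters in capitals mark the match, which begins 104 bases before the start (GRCm38.p6, chr2:70474673-70474922, plus strand).
Sp5: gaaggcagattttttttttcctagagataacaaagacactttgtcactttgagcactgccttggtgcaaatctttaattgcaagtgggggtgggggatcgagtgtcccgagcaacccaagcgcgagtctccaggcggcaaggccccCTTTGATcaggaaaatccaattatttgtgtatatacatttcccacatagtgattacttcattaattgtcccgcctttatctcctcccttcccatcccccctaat
These letters stood in 3.21% of all 32851 promoters of that table, in 1.94% of 1650 genes called higher in LGR5hi, in 2.39% of 1921 called lower, in 3.77% of 371 called higher by at least 2-fold, and in 0 of 22 LGR5 stem cell markers. A match describes the letters in this window and no more.

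Receptors for WNT and R-spondin ligands differed in both directions. Of 19 tested, 8 were called higher in LGR5hi and 2 lower (median 0.50), beside 11.3% and 11.0% of all genes. The 8 include Lgr5, which the sort itself follows and which adds no support. They also include Rnf43 and Znrf3, already counted in the stem cell and WNT lists. Rnf43, a ligase that removes Frizzled receptors and is itself a WNT target, was at 4.79 to 5.22 in LGR5hi and 3.29 to 3.82 in LGR5lo (1.45 ± 0.09). The receptor genes Fzd2 (1.41 ± 0.12) and Ror2 (0.85 ± 0.09) were higher in LGR5hi, whereas Fzd4 (-1.21 ± 0.15) and Fzd5 (-0.96 ± 0.11) were lower. The R-spondin receptor gene Lgr4 differed by -0.11 and was not called. Without pairs 1 or 3 the count of higher calls in this list was 4, and without pair 2 it was 5. Ephrin receptors and ligands, which position cells along the crypt, had 9 of 17 members called higher and 1 lower (median 0.50). Epha4 (0.99 ± 0.11), Efna4 (0.91 ± 0.11), Ephb3 (0.88 ± 0.11) and Efna5 (0.86 ± 0.09) led, and Efnb2 was lower (-0.59 ± 0.09), a call lost without pairs 1 or 2. The higher calls were 5 without pair 1 or pair 2, and 6 with no replicate block.

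Genes of the secretory lineages made up the other side of the comparison. Of 37 enteroendocrine markers, 32 were called lower in LGR5hi and 1 higher, with a median of -3.27. Nts, the neurotensin gene, was at -4.49, -5.58, -5.12 and -5.98 in LGR5hi and at 3.12, 2.57, 2.02 and 1.77 in LGR5lo (mm9 chromosome 10, 101944967 to 101945026). The probe passed background on 2 of 4 LGR5hi arrays and on 4 LGR5lo arrays, and the difference of -7.66 ± 0.18 (adjusted p = 0.00137) was the largest in either direction among the genes named by rule. Sst, the somatostatin gene, was at -1.02, -0.86, -0.41 and -4.04 against 4.59, 5.9, 4.91 and 5.06, with 1 low LGR5hi array in pair 4 and no overlap (-6.70 ± 0.65). The hormone genes Gip (-6.28 ± 0.50) and Cck (-5.24 ± 0.37) followed, with Resp18 (-5.42 ± 0.62) and Vgf (-5.16 ± 0.44) of secretory granules. Chgb, a granin of those granules, was bright in both sorts, at 3.26 to 3.71 in LGR5hi and 7.94 to 8.61 in LGR5lo (-4.69 ± 0.14), and Scg3 (-2.78 ± 0.11) and the secretin gene Sct (-2.72 ± 0.09) were lower as well. Pcsk1n was the 1 higher member (0.38 ± 0.09), and it lost its call without any one of the pairs (adjusted p = 0.0436 with all 4).

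Several of the largest deficits in LGR5hi lay outside that list. Afp, the alpha-fetoprotein gene, was at -1.83, -3.22, -3.79 and -1 in LGR5hi against 4.16, 5.13, 3.4 and 3.84 in LGR5lo (-6.59 ± 0.58). Trpa1, an irritant-gated ion channel gene, was at -4.11 to -3.54 against 0.71 to 1.61 (-4.94 ± 0.15). The sialyltransferase gene St8sia3, the adhesion receptor gene Adgrg4 and the interleukin receptor gene Il18r1 were above background on 4 LGR5lo and 0 LGR5hi arrays, and were at least 15.5-fold, 25.8-fold and 12.2-fold lower. Ap3b2 differed by -5.01 ± 0.35 at its brighter probe and by -0.29 at its other one. Of the 12 largest deficits all but Vgf (-2.54 ± 0.69, adjusted p = 0.0554) were called lower in LGR5hi without irradiation too. Vgf was called there without the non-irradiated pair 1 (-3.48), and Ap3b2 lost its call without pair 1, 2 or 3 of that arm.

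Goblet and tuft cell markers were lower in LGR5hi nearly throughout their lists. Of 23 goblet markers 22 were called lower and 0 higher (median -2.79). Tff3, a trefoil peptide of mucus, was at 7.12, 6.93, 7.02 and 6.87 in LGR5hi and 9.57, 9.4, 9.36 and 9.02 in LGR5lo, a difference of -2.36 ± 0.10. Klk1 (-3.01 ± 0.19), the transcription factor gene Creb3l4 (-2.79 ± 0.17) and Slc12a8 (-2.45 ± 0.12) did not overlap between sorts either, and Clca1, at 0.18, was the single member not called. Of 27 tuft markers 23 were called lower and 0 higher (median -1.65), among them the kinase gene Dclk1 (-1.94 ± 0.12), Nrep (-1.88 ± 0.11), the cation channel gene Trpm5 (-1.73 ± 0.12) and the transcription factor gene Gfi1b (-1.64 ± 0.10). For Trpm5 the LGR5hi arrays read -0.37, -0.33, 0.4 and -0.38 and the LGR5lo arrays 1.06, 1.69, 2.04 and 1.47. At an unadjusted p under 0.05 the higher members were again 0 in both lists. In bulk samples fewer cells of a type and less RNA per cell cannot be told apart. The summed signal of a list, as log2 of the sum over its members, was 7.68 to 8.01 in LGR5hi and 9.85 to 10.55 in LGR5lo for enteroendocrine markers, 9.53 to 9.71 and 11.44 to 11.97 for goblet markers, and 5.07 to 5.86 and 6.43 to 7.19 for tuft markers. Tff3, Dclk1 and the granin gene Chga (-4.78) were above background on all 4 LGR5hi arrays, and the part of this shift in the other differences described here was not tested.

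Atoh1, Gfi1 and Spdef, factors of the secretory lineages, were lower in LGR5hi, and Notch receptors and ligands differed in both directions. In the list of Notch and secretory progenitor genes 5 of 21 tested were called higher in LGR5hi and 7 lower, with a median of -0.01 that was 0.03 under quantile normalization and 0.01 under normexp correction. Atoh1, the factor that starts secretory differentiation, was at 0.51, 0.26, 0.43 and 0.45 in LGR5hi and at 3.31, 3.6, 3.25 and 2.51 in LGR5lo (-2.75 ± 0.21, no overlap). Gfi1 (-3.10 ± 0.24) and Spdef (-2.91 ± 0.21), which act after it, were also lower, as were the Notch ligand genes Dll4 (-2.20 ± 0.11) and Dll1 (-0.81), Lfng (-0.97) and Notch4 (-0.70). The 5 higher members were the receptor genes Notch3 (1.27) and Notch2 (0.84), the ligand gene Jag2 (1.21), Sox4 (1.14) and Hes6 (0.72). With pairs 1 to 4 left out in turn this list had 2, 4, 4 and 6 higher and 5, 4, 5 and 7 lower calls. In the BMP list 4 of 18 members were called higher and 4 lower (median -0.02), beside 11.3% and 11.0% of all genes. Id4, a target of BMP signalling, was at least 14.4-fold lower in LGR5hi, with 0 of 4 arrays above background. The ligand gene Bmp2 (-1.79 ± 0.13) and the inhibitory Smad6 (-1.51 ± 0.17, above background on 2 LGR5hi arrays) were lower, and so was Bmp4 (-1.16 ± 0.15). Rgmb, a BMP co-receptor and stem cell marker, was higher by 1.41 ± 0.11, with Bmp8b (1.21 ± 0.14), Bmp7 (1.07 ± 0.18) and Smad5 (0.41 ± 0.09). The higher calls of this list were 2 without any one of pairs 1, 2 and 3, where Bmp7 and Smad5 lost theirs.

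Calls among enterocyte and Paneth cell markers were all lower in LGR5hi, but in pair 4 the median was smallest in size for the enterocyte list and positive for the Paneth list. Of 41 enterocyte markers 16 were called lower and 0 higher (1 higher at an unadjusted p under 0.05), with a median of -1.11. By pair the median was -1.70, -1.86, -0.76 and -0.22 for pairs 1 to 4. Myo1a, a brush border motor, was at 4.44, 4.41, 4.73 and 4.72 in LGR5hi and 5.79, 5.81, 5.98 and 5.54 in LGR5lo (-1.20 ± 0.13). The transcription factor gene Creb3l3 (-1.35 ± 0.17), Dgat1 of triglyceride synthesis (-1.30 ± 0.21) and the cadherin gene Cdhr5 (-1.11 ± 0.16) did not overlap either. Dgat1 and Cdhr5 lost their calls without any one of pairs 1, 2 and 3. The list's lower calls were 2 without pair 1, 2 without pair 2, 4 without pair 3 and 25 without pair 4. Without irradiation 0 enterocyte markers were called (median -0.41), with pair medians of -0.73, 0.61, 0.35 and -2.33. That median was -0.79 without the non-irradiated pair 2 (1 call), -0.73 without pair 3 and -0.06 without pair 4. Of 19 Paneth markers 4 were called lower and 0 higher (0 at an unadjusted p under 0.05), with a median of -0.85 and pair medians of -0.61, -1.14, -0.83 and 0.33. Over all genes 11.0% were called lower. The 4 Paneth calls were the protease gene Mmp7 (-0.85 ± 0.12), Clps (-1.56 ± 0.28), Copz2 (-2.18 ± 0.42, its other probe -1.12) and the lectin gene Itln1 (-0.88 ± 0.17). Mmp7, Clps and Itln1 overlapped between the sorts. There was 1 call without pair 1, 2 or 3, and 1 with no replicate block, but 10 without pair 4.

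**Figure D2:**
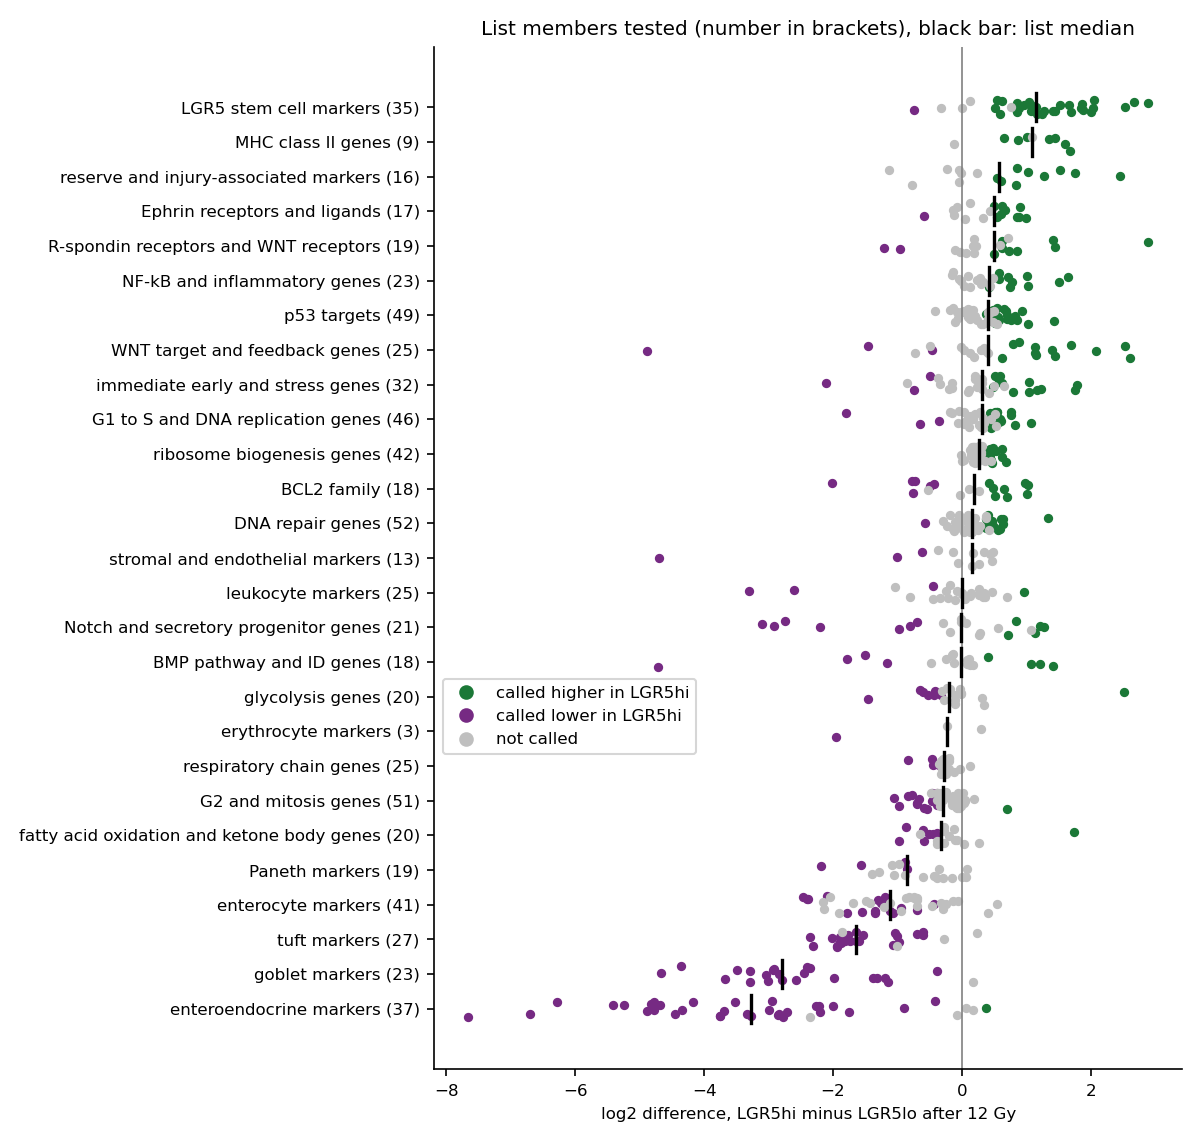
Log2 difference (LGR5hi minus LGR5lo after 12 Gy, horizontal axis) of each tested member of 27 gene lists, in order of the list median (black bar). Green and purple points are genes called higher and lower in LGR5hi and grey points were not called. LGR5 stem cell markers lie to the right (median 1.15), and enteroendocrine (-3.27), goblet (-2.79) and tuft (-1.65) markers to the left.

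Genes of MHC class II antigen presentation were higher in LGR5hi. Of 9 tested, 7 were called higher and 0 lower (0 at an unadjusted p under 0.05), with a median of 1.09. Ciita, the transactivator on which the family depends, was at -0.38, -0.97, 0.2 and -0.11 in LGR5hi and -2.18, -2.68, -1.74 and -1.37 in LGR5lo, a difference of 1.68 ± 0.14 with no overlap. H2-Eb1, which encodes a beta chain, was at 6.64, 6.44, 6.81 and 7.36 against 4.76, 4.38, 5.2 and 6.5. Its groups overlapped through the LGR5lo array of pair 4, although LGR5hi was higher in 4 of 4 pairs (1.6 ± 0.22). The alpha chain gene H2-Aa, at 2.26, 1.64, 2.75 and 4.02 against 0.6, 0.11, 1.25 and 2.92, showed the same spread between pairs (1.44 ± 0.12). The invariant chain gene Cd74 (1.35 ± 0.19), H2-Ab1 (1.01 ± 0.17), H2-DMb1 (0.87 ± 0.12) and H2-DMa (0.66 ± 0.12) were the others called. With no replicate block only 2 of the 9, Ciita and H2-Eb1, were called, and without pairs 1, 2 and 3 there were 2, 4 and 5 calls, Ciita and H2-Aa being called in each. Without irradiation the median was 1.06, with 6 called higher. Leukocyte markers, which share cells with this family, had a median of 0.00 and a summed signal of 6.13 to 6.48 in LGR5hi and 6.6 to 7.23 in LGR5lo, and Ptprc differed by 0.14. After normexp correction 12 leukocyte markers were called higher in LGR5hi and 5 lower, against 1 and 3 before it. That correction called 9804 of all 26078 genes higher and 3327 lower, against 2952 and 2880 before it. The median was then 0.19 over all genes and 0.23 for leukocyte markers. The part of leukocytes in the MHC class II values was not tested.

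Promoters of 3 of these genes are shown because their members moved together and the family is known for shared promoter elements, the X and Y boxes. Capitals mark the Y box core TGATTGG and, in H2-Eb1 and H2-DMb1, the longer X box before it, both searched on both strands. They come from RefSeq (GRCm38.p6), at chr17:34287824-34288073 on the minus strand for H2-Aa, chr17:34305617-34305866 on the plus strand for H2-Eb1, and chr17:34152941-34153190 on the plus strand for H2-DMb1.
H2-Aa: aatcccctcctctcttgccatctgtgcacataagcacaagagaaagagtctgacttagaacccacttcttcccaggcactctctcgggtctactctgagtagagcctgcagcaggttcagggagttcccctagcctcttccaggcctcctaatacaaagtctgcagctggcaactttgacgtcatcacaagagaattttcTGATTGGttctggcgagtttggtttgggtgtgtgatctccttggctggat
H2-Eb1: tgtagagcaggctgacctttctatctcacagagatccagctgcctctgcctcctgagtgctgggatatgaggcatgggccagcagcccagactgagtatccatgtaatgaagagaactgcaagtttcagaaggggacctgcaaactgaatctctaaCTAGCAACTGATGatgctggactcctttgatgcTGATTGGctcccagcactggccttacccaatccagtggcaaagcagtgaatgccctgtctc
H2-DMb1: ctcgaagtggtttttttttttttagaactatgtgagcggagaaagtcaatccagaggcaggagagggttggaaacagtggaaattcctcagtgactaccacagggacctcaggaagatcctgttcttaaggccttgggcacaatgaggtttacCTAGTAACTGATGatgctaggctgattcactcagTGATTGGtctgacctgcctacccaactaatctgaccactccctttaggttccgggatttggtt
The Y box core began 50, 61 and 63 bases before the start in H2-Aa, H2-Eb1 and H2-DMb1, and the X box 94 and 97 bases before it in H2-Eb1 and H2-DMb1. Of the 6 tested members with a promoter in the table, 5 held the Y box core, as did 7.23% of all promoters, 9.27% of genes called higher and 9.06% of genes called lower. These X box letters stood in 2 of the 6 and in 0.0274% of all promoters. A promoter without this match may hold an X box of other letters, which was not searched. H2-Ob held the Y box core 59 bases before its start and differed by -0.12.

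After 12 Gy, targets of p53 were somewhat higher in LGR5hi. Of 49 tested, 21 were called higher and 0 lower, with a median of 0.41, and at an unadjusted p under 0.05 there were 30 higher and 1 lower. Shares over all genes were 11.3% and 11.0% called, and 20.8% and 17.4% at an unadjusted p under 0.05. Zfp365, a gene that responds to p53 and protects fragile sites, was at 3.79, 4.64, 4.09 and 3.67 in LGR5hi and 2.23, 3.17, 2.61 and 2.46 in LGR5lo. The groups did not overlap (1.43 ± 0.10, adjusted p = 0.00216). Psrc1 (0.93 ± 0.08), the sulfatase gene Sulf2 (0.86 ± 0.08) and Trp53inp1 (0.83 ± 0.09) came next, the last with overlap between sorts that the pairs resolve. Trp53 itself was higher by 0.44 ± 0.09 (adjusted p = 0.0235, and up to 0.117 with a pair left out). Of the targets named whatever their values, Bbc3 (0.70) and Bax (0.48) were called higher, and Cdkn1a, Mdm2 and Ccng1 were not called. Cdkn1a, the gene of the cell cycle inhibitor p21, was at 4.64, 5.08, 4.5 and 4.75 in LGR5hi and 5.13, 5.34, 5.18 and 4.97 in LGR5lo (-0.41 ± 0.11, adjusted p = 0.0554), with LGR5lo higher in 4 of 4 pairs. Mdm2, whose product degrades p53, was at 6 to 6.98 against 5.64 to 6.12 (0.48 ± 0.13, adjusted p = 0.0544), and Ccng1 differed by 0.33 ± 0.09 (adjusted p = 0.0603). In non-irradiated cells Cdkn1a was called lower in LGR5hi, by -2.38 ± 0.34 (adjusted p = 0.0036), and the difference between the arms was 1.97 ± 0.48 (adjusted p = 0.223). The count of 21 rested on the pairs: it was 6, 9 and 9 without pairs 1, 2 and 3, 21 without pair 4, and 9 with no replicate block. Higher calls over all genes also moved, from 2952 to 725, 899, 1090 and 2974 without pairs 1 to 4, and 1409 with no block. Without irradiation the list's median was 0.15, 0.02 without the non-irradiated pair 2 and 0.23 without pair 1. The difference between the arms was called for 0 of the 49 members, with 12 at an unadjusted p under 0.05, as against 10.4% of all genes.

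Within the BCL2 family, which sets the threshold of apoptosis at mitochondria, 8 of 18 tested members were called higher in LGR5hi and 6 lower (median 0.19). Over all genes the shares were 11.3% and 11.0%. The BH3-only genes Pmaip1 (1.02 ± 0.11), Bik (1.01 ± 0.16), Bbc3 (0.70 ± 0.13) and Bid (0.66 ± 0.09) were higher, as was the effector Bax (0.48 ± 0.09). Pmaip1, the gene of NOXA, was at 3.43, 4.03, 3.23 and 3.26 against 2.47, 2.69, 2.36 and 2.34. Bad, another BH3-only gene, was at 3.32, 3.5, 3.31 and 3.26 in LGR5hi and 4.25, 4.19, 4.16 and 3.85 in LGR5lo, so its groups were apart in the opposite direction (-0.77 ± 0.10). The family thus contained members on both sides. Pmaip1 alone of these kept its call without each pair in turn. Leaving out pairs 1, 2 and 3, the higher calls were 1, 3 and 3 and the lower calls 0, 1 and 2, and with no replicate block they were 3 and 4.

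Cell cycle genes divided by phase. Among 46 replication and G1 to S genes, 17 were called higher in LGR5hi and 3 lower (median 0.31). The replicative helicase genes Mcm6 (0.82 ± 0.12), Mcm2 (0.76 ± 0.09) and Mcm4 (0.61 ± 0.10) did not overlap between sorts. Mcm2 read 3.22, 3.11, 3.58 and 3.27 in LGR5hi and 2.37, 2.24, 2.85 and 2.68 in LGR5lo. The lower members were E2f2 (-1.80 ± 0.11), E2f8 (-0.65 ± 0.11) and Tk1 (-0.36 ± 0.09). The higher calls numbered 0, 1 and 5 without pairs 1, 2 and 3, and 11 with no replicate block. The lower calls were then 1, 2 and 1, and E2f2 kept its call without each pair in turn. Of 51 genes of G2 and mitosis, 16 were called lower in LGR5hi and 1 higher, with a median of -0.29. Plk1, a mitotic kinase, was at 2.89, 2.08, 2.22 and 2.37 in LGR5hi and 3.54, 2.79, 2.96 and 2.9 in LGR5lo. The groups overlapped, but LGR5hi was lower by 0.53 to 0.75 within each pair (-0.66 ± 0.08, adjusted p = 0.00816). The phosphatase gene Cdc25b (-1.05 ± 0.14), Cdkn3 (-0.83 ± 0.11) and the centromeric histone gene Cenpa (-0.59 ± 0.08) did not overlap. The 1 higher member was Gtse1, also listed as a p53 target, at 0.70 ± 0.10. The lower calls were 1, 5 and 5 without pairs 1, 2 and 3, and 6 with no replicate block. Cdc25b was called in each, whereas Plk1, Cdkn3, Cenpa and Gtse1 lost their calls without pair 1.

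The G2 and mitosis list had the opposite sign in non-irradiated cells, where 16 members were called higher in LGR5hi, 0 lower, and the median was 0.49. Without the non-irradiated pairs 1 to 4 in turn the higher calls were 7, 14, 4 and 4 and the median 0.56, 0.38, 0.49 and 0.52. Of the 16 called lower after 12 Gy, 5 were called higher without irradiation. Pair medians were -0.42, -0.19, -0.33 and -0.18 after 12 Gy and 0.29, 0.72, 0.42 and 0.44 without it. For 50 of the 51 members the difference was smaller after 12 Gy, as it was for 48.2% of all genes, and 42 of them had an unadjusted p under 0.05 for the difference between arms, as against 4.57% of all genes in that direction. None was called after adjustment over all genes, where limma called 30 in all. With any one non-irradiated pair left out, the difference was smaller after 12 Gy for 50 of 51, and 4 were called without pair 2 and 0 without each of the others. The median difference between arms was -0.70 with all pairs and -0.75, -0.62, -0.70 and -0.73 without the non-irradiated pairs 1 to 4. Some other lists leaned the same way. The difference was smaller after 12 Gy for 46 of 52 DNA repair, 38 of 46 replication and G1 to S, and 24 of 25 respiratory chain genes. Without the non-irradiated pair 2 it was smaller for 36, 25 and 18. With all pairs 7, 4 and 1 of these had an unadjusted p under 0.05, beside 4.57% of all genes in that direction. The respiratory chain count is near that share, and 0 genes of these lists were called.

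Early response and inflammatory genes were more often higher than lower in LGR5hi after 12 Gy. Of 32 immediate early and stress genes 12 were called higher and 3 lower (median 0.32), beside 11.3% and 11.0% of all genes. The lower count is thus near the share over all genes. Nr4a1, an orphan nuclear receptor gene, was at 2.28, 3.75, 2.45 and 2.43 in LGR5hi and 0.74, 1.68, 0.72 and 0.64 in LGR5lo, with pair 2 high in both sorts (1.78 ± 0.11). The AP-1 gene Fosl1 (1.16 ± 0.09) and Ccn1, a matricellular gene (1.76 ± 0.13), did not overlap. Klf4, which is associated with cell cycle exit in the gut, was lower by -2.11 ± 0.17, with Klf2 (-0.74 ± 0.10) and Socs3 (-0.50 ± 0.13). Of 23 genes of the NF-kB and inflammatory list 10 were called higher and 0 lower (0 at an unadjusted p under 0.05), with a median of 0.42. The chemokine genes Cxcl10 (1.65 ± 0.13) and Cxcl16 (1.02 ± 0.09) did not overlap, and Icam1 (1.01 ± 0.13) and Tnf (0.78 ± 0.10) did. Cxcl10 was at 2.51 to 3.22 in LGR5hi and 0.81 to 1.38 in LGR5lo. Without pairs 1 and 2 the NF-kB calls were 5 and with no replicate block 6, and the immediate early list had 5, 7 and 8 higher and 1, 1 and 2 lower calls without pairs 1, 2 and 3. Klf2 and Socs3 were among the calls lost. Without irradiation the medians of the immediate early and NF-kB lists were -0.13 and 0.12. With the non-irradiated pairs 1 to 4 left out in turn they were -0.32, -0.06, -0.21 and -0.04 for the former, and -0.11, 0.06, 0.02 and -0.05 for the latter. The difference between the arms was called for 0 members of either list. At an unadjusted p under 0.05 there were 10 of 32 and 6 of 23 members, as against 10.4% of all genes.

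Markers associated with reserve stem cells and with regeneration after injury were in part higher in LGR5hi. Of 16 tested, 9 were called higher and 0 lower (1 lower at an unadjusted p under 0.05), with a median of 0.58. Clu, the clusterin gene of revival stem cells, was at 2.75, 3.1, 2.01 and 1.96 in LGR5hi and -0.23, 0.27, -0.25 and 0.18 in LGR5lo, a difference of 2.46 ± 0.22. Mex3a (1.53 ± 0.14) and Lrig1 (0.84 ± 0.08), which also stand in the LGR5 stem cell list, were higher without overlap. The reserve markers Bmi1 (0.24), Hopx (-0.05) and Tert (-0.05) were not called. The calls were 6 without pair 1, 2 or 3, and 5 with no replicate block. In non-irradiated cells 4 members were called higher and 3 lower, and Clu differed by 2.27 ± 0.22. The higher calls were 2 without the non-irradiated pair 1, 3 or 4. The difference between the arms was called for 2 members: Ly6a, from -1.64 without irradiation to 0.55 (adjusted p = 0.0303), and Anxa3, from -2.20 to -0.02 (adjusted p = 0.0405). Ly6a lost that call without the non-irradiated pair 1 (adjusted p = 0.0918) or 4 (0.0756), and Anxa3 without pair 1 (0.0995).

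**Figure D3:**
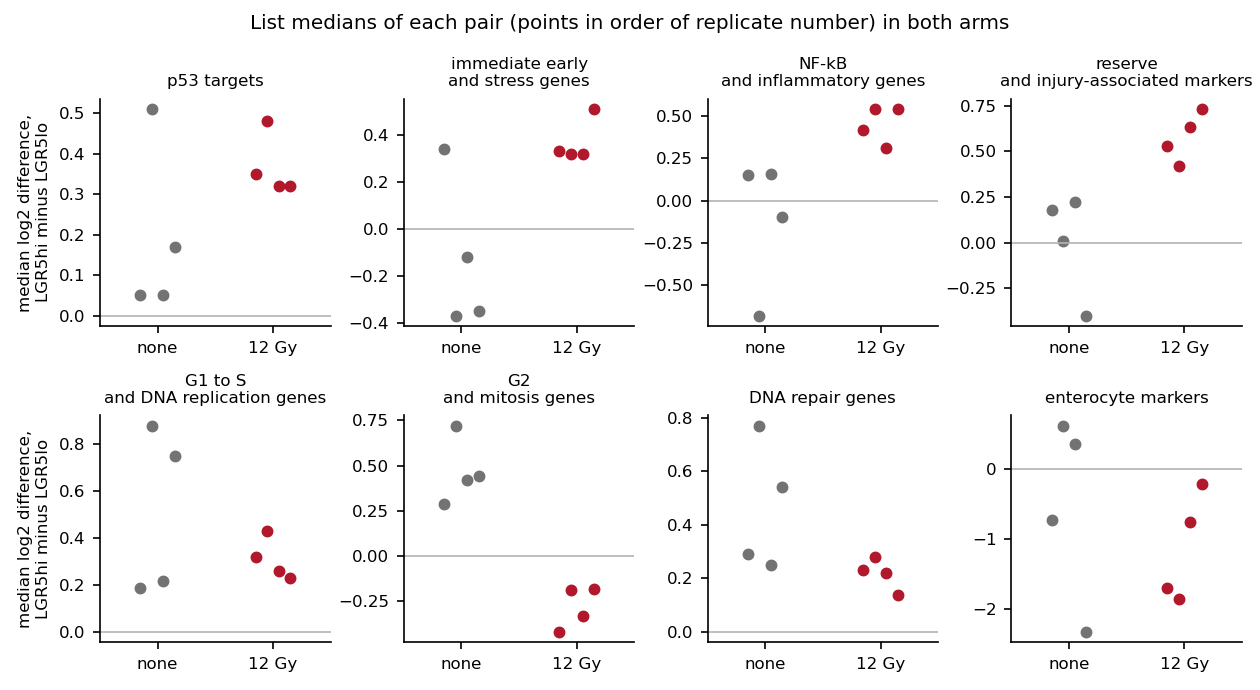
Median log2 difference (LGR5hi minus LGR5lo, vertical axis, with a scale of its own in each panel) over the tested members of 8 lists, for each of 4 non-irradiated pairs (grey) and 4 pairs after 12 Gy (red), in order of replicate number. The G2 and mitosis medians are 0.29 to 0.72 without irradiation and -0.42 to -0.18 after 12 Gy. The p53 medians are 0.32 to 0.48 after 12 Gy, and 0.05, 0.51, 0.05 and 0.17 in the non-irradiated pairs, the highest being pair 2, whose LGR5lo array stood apart.

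DNA repair, ribosome and energy genes differed by small amounts. Of 52 DNA repair genes 14 were called higher in LGR5hi and 1 lower (median 0.16), beside 11.3% and 11.0% of all genes. Msh6 of mismatch repair (0.64 ± 0.10), the checkpoint adaptor gene Mdc1 (0.61 ± 0.09) and Rad50 of the break-sensing MRN complex (0.60 ± 0.09, its other probe 0.24) were higher. Lig4, the ligase of end joining, was at 0.19, 0.17, 0.28 and 0.06 in LGR5hi and 0.64, 0.81, 0.76 and 0.78 in LGR5lo, lower by -0.57 ± 0.09. Of 42 ribosome biogenesis genes 13 were called higher and 0 lower (0 at an unadjusted p under 0.05), with a median of 0.27. Utp20 (0.68 ± 0.08), the nucleolin gene Ncl (0.53 ± 0.08), Nop56 (0.48 ± 0.08) and Nhp2 (0.45 ± 0.08) did not overlap. Leaving out pairs 1, 2 and 3, the repair list had 0, 0 and 1 higher calls and the ribosome list 0, 1 and 1, and with no replicate block the repair list had 7. Each of the genes named here lost its call without pair 1.

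Among genes of fuel use, most calls were lower in LGR5hi, and Ldhb went strongly the other way. Ldhb, which favours the conversion of lactate to pyruvate, was at 2.21, 3.67, 1.86 and 1.94 in LGR5hi and -0.73, 1.39, -0.52 and -0.48 in LGR5lo, with pair 2 high in both sorts. The other 7 called members of the 20 glycolysis genes were lower (median -0.20), such as Aldoa (-0.52 ± 0.09) and Pfkp (-1.45 ± 0.25, its other probe -0.02). Of 20 genes of fatty acid oxidation and ketone bodies 7 were called lower (median -0.33), including Cpt1a, the gate of mitochondrial fatty acid import (-0.87 ± 0.11), and Cpt2 (-0.51 ± 0.09). Of 25 respiratory chain genes 4 were called lower and 0 higher (0 at an unadjusted p under 0.05), with a median of -0.28. Over all genes 11.0% were called lower, so this count is not far from that share. Of the 4, 3 encode succinate dehydrogenase subunits, Sdhb (-0.45 ± 0.09), Sdhc (-0.47 ± 0.09) and Sdhd (-0.84 ± 0.20). With pairs 1, 2 and 3 left out, the lower calls in glycolysis were 0, 0 and 1, in fatty acid oxidation 1, 2 and 1, and in the respiratory chain 0 each. With no replicate block glycolysis had 3 and the respiratory chain 1. Ldhb and Cpt1a kept their calls without each pair in turn, and the other genes named here did not.

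Markers of cells outside the epithelium differed little as lists. Of 25 leukocyte markers 1 was called higher, Lck (0.97 ± 0.10), and 3 lower, Nkg7 (-2.60 ± 0.22), C1qa (-3.30 ± 0.50, above background on 1 LGR5hi array) and Cd79b (-0.44 ± 0.08). Over all genes 11.3% were called higher and 11.0% lower. The median of the leukocyte list was 0.00. After normexp correction it was 0.23, with 12 members called higher and 5 lower. All genes then had a median of 0.19, with 9804 of 26078 called higher and 3327 lower. Of 13 tested stromal and endothelial markers 0 were called higher (3 at an unadjusted p under 0.05) and 3 lower, with a median of 0.16. Vim, an intermediate filament gene, was far lower in LGR5hi, at -1.62, -1.89, -2.04 and -1.71 against 2.54, 3.21, 2.65 and 3.14 (-4.70 ± 0.17). The collagen genes Col1a2 (0.26) and Col3a1 (0.44) and the endothelial gene Pecam1 (-0.13) were not called. Lyve1 (-0.62 ± 0.11) and Thy1 (-1.0 ± 0.21) overlapped, and Thy1 read 0.09 after normexp correction. The summed signal of the stromal list was 4.24 to 4.63 in LGR5hi and 4.52 to 4.64 in LGR5lo. Of 3 tested erythrocyte genes Hba-a1 was lower (-1.95 ± 0.26), but it has a near-identical copy, Hba-a2, at -0.23, and the assignment between them is uncertain. Without pair 1 there were 0 erythrocyte calls and 1 stromal and 1 leukocyte gene called lower. Lck, Nkg7 and Vim kept their calls without each pair in turn.

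The sort difference after 12 Gy was set beside that of the non-irradiated pairs, which are other samples, to see where it differed between the arms. Without irradiation 2565 genes (9.84%) were called, 1244 higher in LGR5hi (4.77%) and 1321 lower (5.07%), and without the non-irradiated pairs 1 to 4 in turn 1550, 3035, 1870 and 1466. Of the 2952 genes higher in LGR5hi after 12 Gy, 778 (26.4%) were also called higher there, which is 62.5% of the higher calls without irradiation. Of the 2880 lower genes 958 (33.3%) were also called lower, or 72.5% of the lower calls without irradiation. There were 47 genes called higher after 12 Gy and lower without irradiation, and 11 the other way. Across the 26078 genes the differences in the arms had a Pearson r of 0.557 and a Spearman rho of 0.361, and 0.640 and 0.433 without the pair whose LGR5lo array stood apart, as a description in which genes are not independent.

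A difference between the arms was itself called for 30 genes (0.115%), 28 with a greater LGR5hi minus LGR5lo difference after 12 Gy (0.107%) and 2 with a smaller one (0.00767%), and 10.4% of genes had an unadjusted p under 0.05. The smallest p-values belonged to genes that changed sign. Arc, an immediate early gene of neurons, was higher in LGR5hi by 1.5, 1.46, 1.28 and 1.65 in pairs 1 to 4 after 12 Gy, and differed by -1.06, -1.47, -0.90 and -1.39 in the non-irradiated pairs. The change of the difference was 2.68 ± 0.19 (adjusted p = 0.0116). Dapk1, a kinase gene of cell death, went from -1.04 ± 0.14 to 1.40 ± 0.09 (change of 2.44 ± 0.20), and the Notch ligand gene Jag2 from -0.76 ± 0.12 to 1.21 ± 0.11 (1.97 ± 0.17). Sfrp5 ran the other way, with pair differences of 0.96, 1.29, 1.14 and 1.23 without irradiation and -0.72, -0.61, -0.73 and -0.95 after it (-1.90 ± 0.17). Zcchc24 had the largest change of these 10, at 4.11 ± 0.36, from -2.28 to 1.83, and pair 2 was high for it in both irradiated sorts. Hs3st6, a heparan sulfate sulfotransferase gene, changed by 2.32 ± 0.22, Ptpdc1, a phosphatase gene, by 1.53 ± 0.15, and Btbd17 by 2.32 ± 0.24, all from below to above 0.

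Another 2 genes changed size without a called change of sign. Gja1, the connexin 43 gene, differed by 2.35, 2.10, 2.13 and 2.15 after 12 Gy and by 0.08, -0.46, 0.25 and -0.57 without irradiation (change of 2.36 ± 0.23). Abcc8, a subunit of the ATP-sensitive potassium channel, was lower in LGR5hi by -3.77, -3.01, -2.99 and -3.72 without irradiation and by -0.18, -0.75, -0.60 and -1.04 after it (2.73 ± 0.28). The 10 genes had adjusted p-values of 0.0116 to 0.0178 for the change. These calls depended on all 4 irradiated pairs: leaving out any one of them left 0 called genes, with 1750 to 1955 at an unadjusted p under 0.05. Without the non-irradiated pair 2 there were 118 calls, and without pair 1 of that arm there were 3 (Arc, Dapk1 and Zcchc24). Without its pairs 3 and 4 there were 29 and 17, each including all 10 genes. Over all 17 arrays without a block there were 13, which of the 10 genes included only Abcc8, Arc, Btbd17 and Dapk1.

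**Figure D4:**
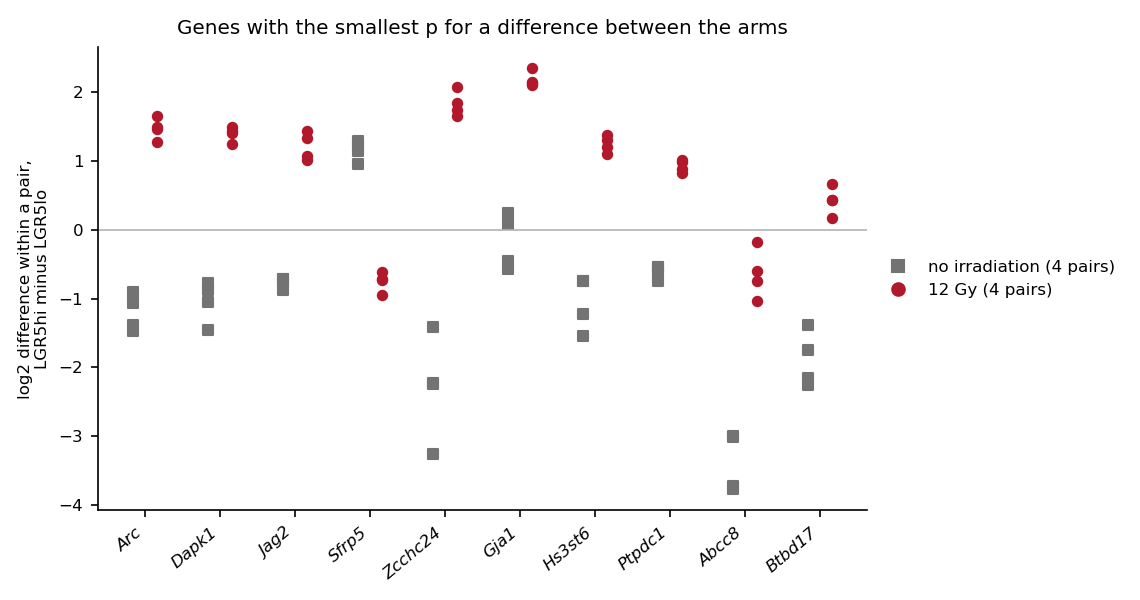
Log2 difference within each pair (LGR5hi minus LGR5lo) of the 10 genes with the smallest p for a difference between the arms, in 4 non-irradiated pairs (grey squares) and 4 pairs after 12 Gy (red points). Arc, Dapk1, Jag2, Zcchc24, Hs3st6, Ptpdc1 and Btbd17 lie below 0 without irradiation and above 0 after 12 Gy, Sfrp5 the reverse, and all of these are without overlap.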

How the data were processed

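RNA of sorted cells was labelled with Cy3 and hybridized to single-colour Agilent mouse arrays. Per the file headers, the deposited scanner files hold linear intensity per spot from Agilent Feature Extraction 10.7.3.1, background-subtracted and detrended, with probe positions in mm9. The deposited series table holds log2 values, which matched percentile-scaled log2 signal up to a constant per probe, to within 0.02 log2 for 100% of probes on the 16 arrays with whole files. It was used to rebuild non-irradiated LGR5hi replicate 1, whose scanner file is damaged as held here. Spots flagged as outliers were left out, replicate spots were averaged, and the 75th percentile over non-control probes was subtracted. Of 55681 probes, 38529 passed the scanner's background flag on 4 or more of the 8 irradiated arrays. For each name the brightest kept probe was tested, giving 26078 names, 17274 of them in the RefSeq gene table. Names came from that table by accession for 27325 probes, by symbol for 3523 and by synonym for 551. The exon or UTR in which a probe lies was not analysed here, since no mm9 annotation was used.

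Differences were fitted with limma 3.58.1 (lmFit and eBayes, R 4.3.3), with the replicate number as a block and Benjamini-Hochberg adjustment over all names. A fit over both arms, without the unpaired non-irradiated LGR5lo replicate 5, gave the non-irradiated differences and the change between arms. Same-numbered arrays were more alike: their deviations from group means had r of 0.414, 0.520, 0.320 and 0.205, each array's highest being with its own number. For LGR5hi 4 the value with LGR5lo 3, on the same slide, was 0.176. Same-numbered arrays share a slide, neighbouring places and a sex label, which cannot be told apart here from a shared source. Whether same-numbered samples came from the same mouse is not given in the sources used here, so that p-values measure the spread between these samples. The number of arrays limits the precision. The analysis was tested on simulated data. Other steps used Python 3.11.15 with matplotlib 3.10.9, pandas 2.3.3 and numpy 2.4.6.

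The comparison, the 27 gene lists and the settings were chosen with earlier results of these data known. Genes named are the 12 largest called differences in each direction that had a RefSeq gene, the same sign in 4 pairs and no overlap, up to 4 called members per list, by smallest p, and Lgr5, Olfm4, Ascl2, Smoc2, Axin2, Cdkn1a, Mdm2, Ccng1, Bbc3, Bax and Trp53, and the 10 smallest p-values for the change between arms. Others named from the lists were chosen after their values were seen. Pgk1, whose probe position falls on another chromosome than the gene, is not described. Some members of the fatty acid oxidation list are not reported here.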

Additional observations from a re-analysis of the deposited data

Results flagged for a closer look

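Within groups of 4 arrays, 19 of 318 checks had 1 array far from the others by Dixon's criterion, and chance alone would give about 1 in 20. Of the flagged arrays many belong to pair 2. In LGR5hi pair 2 these were Nr4a1 at 3.75 (others 2.28 to 2.45), Mdm2 at 6.98 (6 to 6.15), Dapk1 at 0.96 (0 to 0.08), Zcchc24 at -0.54 (-2.77 to -2.51), Hs3st6 at 2.49 (0.82 to 1.08), E2f2 at 1.7 (2.45 to 2.47) and Lyve1 at -2.32 (-3.14 to -3.09). In LGR5lo pair 2 they were Nr4a1 at 1.68 (0.64 to 0.74), Zcchc24 at -2.27 (-4.61 to -4.33), Ldhb at 1.39 (-0.73 to -0.48), Scg3 at 1.24 (0.46 to 0.57) and Smad5 at 2.13 (1.95 to 1.97). Nr4a1 and Zcchc24 were high in both sorts of that pair. In pair 4 the LGR5hi array was low for Lef1, at -2.48 (-1.66 to -1.53), and for Sst, at -4.04 (-1.02 to -0.41), and the LGR5lo array was low for Creb3l4, at 2.91 (3.64 to 3.78), and Klk1, at 4.97 (5.79 to 5.92). In pair 3 the LGR5hi array was high for the tuft markers Gfi1b, at -1.54 (-2.33 to -2.21), and Trpm5, at 0.4 (-0.38 to -0.33). In pair 1 the LGR5hi array was low for Sdhc, at 4.5 (4.61 to 4.63).

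The sort difference itself differed between the arms, by the test of that change, for Arc (2.68), Dapk1 (2.44), Jag2 (1.97), Sfrp5 (-1.90), Zcchc24 (4.11), Gja1 (2.36), Hs3st6 (2.32), Ptpdc1 (1.53), Abcc8 (2.73) and Btbd17 (2.32), each as the log2 difference after 12 Gy minus that without irradiation.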

How the results depend on the processing

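The count of 5832 calls after 12 Gy moved by more than 1.5 times under some settings: it was 3270 with no replicate block, 1833 over all 17 arrays with no replicate block, 2556 with both arms in one blocked fit and 13131 with normexp background correction. It was 1634 to 5995 with one pair left out, 2254 on slide 1 and 891 in male pairs, and 0 on slide 2 and in female pairs, where limma gave 4114 and 4896 genes at an unadjusted p under 0.05 from 2 pairs each. Pairing by replicate number lowered the median standard error from 0.179 to 0.121, and 3195 of the 5832 genes were also called without the block. Quantile normalization, median centring, a random block, slide as the block, no filter, a stricter filter, the series table, averaging all probes of a gene, a trended and robust variance, and array weights gave 4346 to 7826. For the difference between arms the 30 calls became 118 without the non-irradiated pair 2, 3 without the non-irradiated pair 1, 29 and 17 without pairs 3 and 4 of that arm (added after seeing the data), 13 over all 17 arrays without a block, 31 from the series table, and 0 with any irradiated pair left out. The 2565 calls without irradiation were 1550, 3035, 1870 and 1466 without its pairs 1 to 4. Single genes that reversed were Thy1, after 12 Gy, at 0.09, and Dkk3, after 12 Gy, at 0.26, both with normexp correction. Small list medians changed sign: that of the Notch list was 0.03 with quantile normalization and 0.01 with normexp, and with one pair left out the BMP list ranged from -0.03 to 0.03, the Notch list from -0.05 to 0.07, the stromal list from -0.03 to 0.21 and the erythrocyte list from -0.57 to 0.03. Of 159 named genes, 100 kept their side of the threshold without each pair in turn and 89 under every setting other than left-out pairs and single slides or sexes. The causes were not tested. Dim probes limit what can be said of genes absent from one sort, and 4 pairs limit the rest.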
